A study of Homo sapiens with 19 samples.

Results

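Glycolysis and the response to low oxygen were followed through 34 genes: glucose and lactate transporters, the enzymes from hexokinase to lactate dehydrogenase, pyruvate dehydrogenase kinases, the oxygen-sensing factors around HIF1A, and genes that HIF1A is known to switch on. The members are a list of gene names, and all 34 were found among the 25365, 25267 and 25266 genes of the OCI-LY10, TMD8 and SUDHL2 tables. The series concerns EGR1, a zinc-finger transcription factor induced by growth signals, in 3 human cell lines of diffuse large B-cell lymphoma (an aggressive cancer of B cells), all of its ABC, or activated B-cell-like, subtype. Of its 19 samples, 15 are RNA libraries: 9 labelled OCI-LY10 (3 per group), 3 labelled TMD8 and 3 labelled SUDHL2 (1 per group). The other 4 are chromatin samples and were not analysed here. The groups were a control short hairpin RNA (the control), hairpin 8 against EGR1 (shEGR1#8) and hairpin 9 against EGR1 (shEGR1#9). All cells, controls included, were transduced with a hairpin, induced with doxycycline at 20 ng/ml for 2 days. Whether the transduced cells were cloned is not stated in the labels. The comparison asks how RNA levels differ between cells carrying a hairpin against EGR1 and cells carrying the control hairpin.

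Glycolysis splits glucose into pyruvate, and lactate dehydrogenase can turn that pyruvate into lactate, which leaves the cell through monocarboxylate transporters. HIF1A is a transcription factor that is destroyed when oxygen is plentiful: EGLN enzymes hydroxylate it and VHL, part of a ubiquitin ligase, then marks it for breakdown. When it is stable it binds short DNA elements and raises many glycolytic genes, and lymphoma cells, like many dividing cells, make lactate even with oxygen present.

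Levels are given as FPKM, in which fragment numbers are divided by gene length and by sequencing depth. In OCI-LY10 the summed FPKM was 431993 to 445028 per library, 10319 to 10499 genes were at 1 FPKM or more, and correlations between libraries were 0.978 to 0.994. Profiles did not separate the TMD8 and SUDHL2 labels: correlations were 0.903 to 0.937 within TMD8, 0.924 to 0.948 within SUDHL2 and 0.870 to 0.945 between them, so each comparison stays within its table and these libraries are named by their labels. Small structural RNAs took 0.59 to 0.752% of the summed FPKM in OCI-LY10, 53.6 to 55.3% in SUDHL2, and 36.3% in the TMD8 control against 63.1 and 60.6% in its shEGR1#8 and shEGR1#9 libraries. All 10 B cell markers examined were at 1 FPKM or more in at least 1 library of every table. T and NK cell markers at that level numbered 0, 2 and 2 of 14 (OCI-LY10, TMD8, SUDHL2), myeloid markers 1, 2 and 2 of 10, and fibroblast and epithelial markers 1, 3 and 3 of 10. Whether replicate libraries were grown as separate cultures is not stated in the labels, and p-values below reflect the variation among libraries alone, which may be technical. In these bulk samples, fewer cells of a kind and less RNA per cell cannot be told apart.

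EGR1 itself, the target of the hairpins, did not show the labels in OCI-LY10. Its level was 8.57, 9.59 and 12.3 FPKM in the controls, 10, 11.4 and 20.5 with shEGR1#8 and 10.8, 11.8 and 22.7 with shEGR1#9, library 3 being the highest of each group. The hairpin-labelled libraries were not below the controls (log2 difference 0.42, SE 0.267, limma adjusted p = 0.349). It was 7.31, 10.8 and 9.95 FPKM in the control, shEGR1#8 and shEGR1#9 libraries of TMD8, and 17.0, 13.7 and 15.4 FPKM in those of SUDHL2. Directions below are therefore differences between libraries labelled with a hairpin and those labelled control.

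In OCI-LY10, transcripts of the lactate exporter gene SLC16A3, the vasodilator peptide gene ADM, the aldolase gene ALDOC and HIF1A rose with the EGR1 hairpins, while LDHA and PFKM fell. With both hairpin labels averaged against control, 4 of the 32 members tested rose, 2 fell and 26 did not pass. A gene was tested when it reached 1 FPKM in at least 3 of the 9 libraries, and was called at a limma adjusted p under 0.05 over all genes tested. Of all 10612 genes tested, 5.84% rose and 2.71% fell, and under quantile normalization the split of all calls moved from 620 higher and 288 lower to 444 and 367. The median log2 difference was 0.05 over the tested members and 0.03 over all genes tested. The list as a whole was not tested, and nothing particular to it is read from these counts. Of the 2 members left out, SLC2A3, a high-affinity glucose transporter, lay between 0.172 and 0.469 FPKM and EGLN3, a HIF hydroxylase, at or below 0.104 FPKM in every library. PFKFB4, which makes the activator of phosphofructokinase, passed the level for testing through hairpin-labelled libraries alone. The plot of differences by gene sets out each hairpin label separately.

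**Figure D1:**
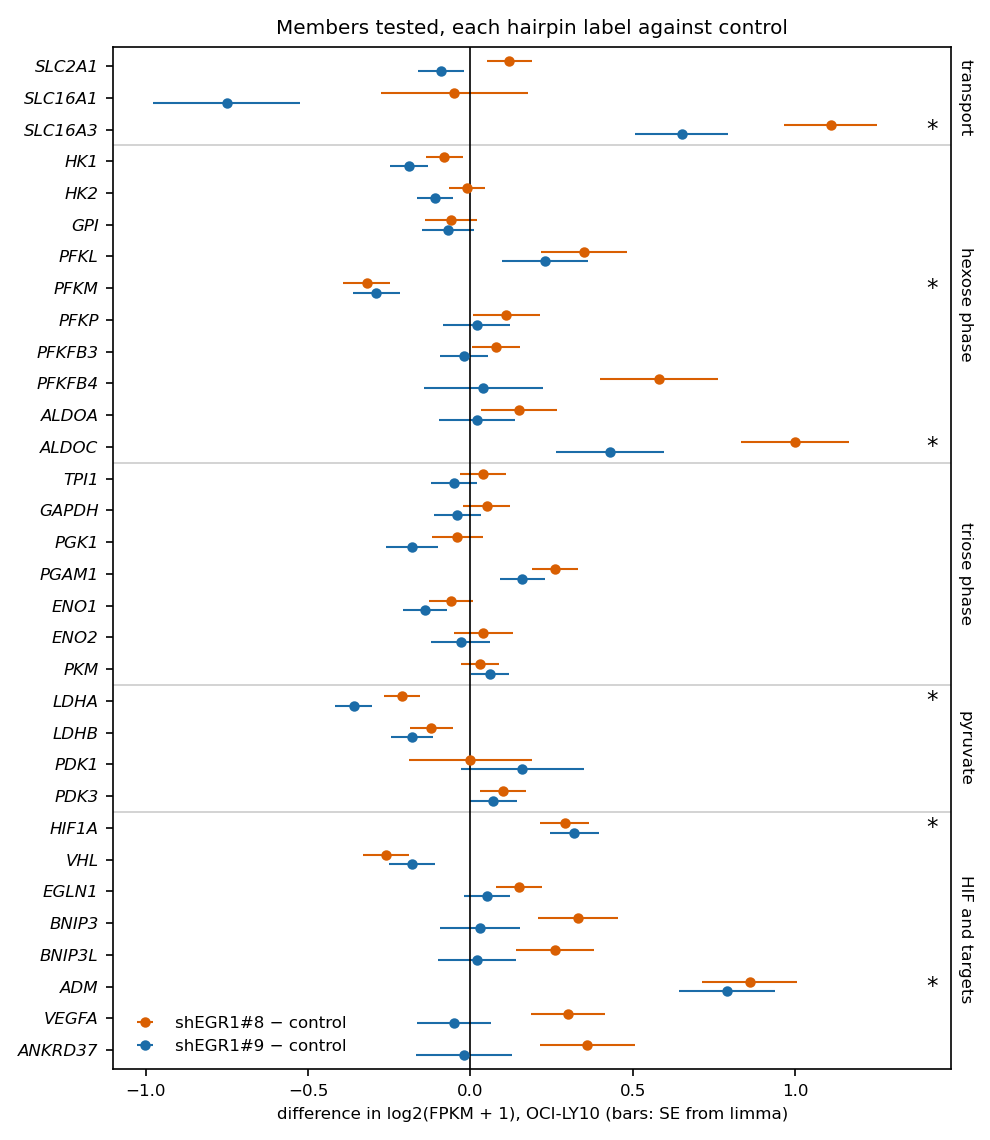
Differences in log2(FPKM + 1) from control for the 32 members tested in OCI-LY10, by step of the pathway; points are the limma estimates for shEGR1#8 (orange) and shEGR1#9 (blue), bars their SE, and asterisks mark the 6 members called with both labels averaged. Most points lie within 0.4 of 0, while SLC16A3 and ADM lie to the right with both labels, ALDOC lies further right with shEGR1#8 (1.00) than with shEGR1#9 (0.43), and SLC16A1 lies at -0.75 with shEGR1#9 and a wide bar.

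The sequence upstream of these genes is shown because HIF1A binds elements whose core reads ACGTG or GCGTG, and because SLC16A3, ADM and ALDOC had the largest rises called and LDHA the smallest adjusted p among the falls. Each window runs from 250 bases before to 50 bases after a RefSeq transcription start on GRCh38.p14 and is printed 5′ to 3′ along the gene's strand. Capitals mark ACGTG or GCGTG on either strand, so that CACGT and CACGC are the same cores read from the other strand. The SLC16A3 window lies at chr17:82228792-82229091 on the plus strand and is 1 of 5 for that gene, the 1 with most ACGTG matches. The ADM window lies at chr11:10304823-10305122 on the plus strand. The ALDOC window lies at chr17:28576846-28577145 on the minus strand. The LDHA window lies at chr11:18394313-18394612 on the plus strand and is 1 of 2 for that gene, again the 1 with most ACGTG matches.
SLC16A3: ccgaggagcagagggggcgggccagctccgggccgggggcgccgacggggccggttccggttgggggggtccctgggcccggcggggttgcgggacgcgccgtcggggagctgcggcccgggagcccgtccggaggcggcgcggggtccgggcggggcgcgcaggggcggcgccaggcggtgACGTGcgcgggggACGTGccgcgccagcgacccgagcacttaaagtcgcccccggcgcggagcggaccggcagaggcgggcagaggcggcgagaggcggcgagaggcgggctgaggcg
ADM: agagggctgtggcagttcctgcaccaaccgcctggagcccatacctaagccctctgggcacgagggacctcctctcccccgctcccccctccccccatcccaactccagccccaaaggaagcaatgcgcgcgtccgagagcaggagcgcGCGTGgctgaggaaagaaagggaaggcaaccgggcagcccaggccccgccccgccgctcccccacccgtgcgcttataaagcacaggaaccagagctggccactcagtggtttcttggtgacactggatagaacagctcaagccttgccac
ALDOC: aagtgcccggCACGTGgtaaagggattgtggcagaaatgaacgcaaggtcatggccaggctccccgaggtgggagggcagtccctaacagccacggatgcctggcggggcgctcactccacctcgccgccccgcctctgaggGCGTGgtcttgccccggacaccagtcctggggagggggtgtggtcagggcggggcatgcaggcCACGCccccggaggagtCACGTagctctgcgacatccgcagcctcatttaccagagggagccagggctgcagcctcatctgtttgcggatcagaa
LDHA: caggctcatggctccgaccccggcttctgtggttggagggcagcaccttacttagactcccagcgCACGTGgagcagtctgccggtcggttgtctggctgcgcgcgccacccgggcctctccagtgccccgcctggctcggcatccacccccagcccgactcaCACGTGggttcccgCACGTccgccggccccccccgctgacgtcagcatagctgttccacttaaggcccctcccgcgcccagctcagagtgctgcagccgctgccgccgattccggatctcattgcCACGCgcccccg

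The SLC16A3 window held 2 ACGTG and 0 GCGTG matches and the ADM window 0 and 1. The ALDOC window held 3 and 2, and the LDHA window 5 and 1. A stretch CACGTG reads ACGTG on both strands and was counted as 2 matches, so matches outnumber the capital stretches in ALDOC and LDHA. Genes that rose and a gene that fell thus both carried the core in the windows shown. Of the 5 SLC16A3 windows, 3 held either core and 1 held ACGTG. Of the 2 LDHA windows, 2 held either core and 1 held ACGTG. Windows were found for 29 of the 34 members (56 windows), and SLC2A3, SLC16A1, VHL, BNIP3L and VEGFA had no entry. ACGTG occurred in 39.3% of the members' windows and in 21.4% of all 35116 windows of the table, and GCGTG in 41.1% and 36.5%. Either core was present in 66.1% of the members' windows against 48.4% of all. These are shares of windows, not of genes, and a member had up to 7 windows. By gene, 27 of the 29 members held either core in at least 1 window, so its presence does not set risen and fallen genes apart. The EGR1 motif letters GCGTGGGCG, which contain GCGTG, were found in 1.79% of the members' windows (1 window, of PFKP) and in 0.795% of all. GCGGGGGCG was in 0% of the members' windows and in 5.07% of all. A match is a string of letters, not a measured binding site.

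Lactate and glucose transport held the highest and the lowest difference of the list in OCI-LY10 with both labels averaged. SLC16A3 (MCT4, which carries lactate out of the cell) was at 3.33, 3.60 and 2.72 FPKM in the controls, 6.28, 8.75 and 9.54 with shEGR1#8, and 4.97, 6.06 and 5.73 with shEGR1#9. Every hairpin-labelled library was higher than each of the 3 controls, and the shEGR1#8 libraries lay above the shEGR1#9 libraries. The means were 3.22 ± 0.449, 8.19 ± 1.70 and 5.59 ± 0.560 FPKM (SD, n = 3 each), and SLC16A3 rose by 0.88 on the log2(FPKM + 1) scale (SE 0.124, limma adjusted p = 0.00436). It passed with each label separately, with log2 differences of 1.11 for shEGR1#8 (adjusted p = 0.00433) and 0.65 for shEGR1#9 (adjusted p = 0.0369). The shEGR1#9 call was lost without any 1 control or shEGR1#9 library (adjusted p up to 0.144), and without the filter on low values (adjusted p = 0.0714).

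SLC16A1 (MCT1, which moves lactate in or out down its gradient) was at 49.2, 52.8 and 49.1 FPKM in the controls and 52.4, 48.9 and 44.6 with shEGR1#8, but at 23.5, 23.3 and 46.8 with shEGR1#9. Libraries 1 and 2 of shEGR1#9 were far below every other library, and library 3 lay just below the lowest control. With all 9 libraries SLC16A1 did not pass (both labels -0.40, SE 0.196, limma adjusted p = 0.232; shEGR1#9 alone -0.75, adjusted p = 0.106). Without shEGR1#9 library 3 the difference was -0.56 for both labels (adjusted p = 0.00377) and -1.07 for shEGR1#9 (adjusted p = 0.00177), so this result turns on 1 library. Such a pattern, 2 libraries of a group within 5% of each other and the third at least 1.8-fold apart, was seen in 26 of the 5646 genes with a mean of at least 10 FPKM in shEGR1#9 (0.461%), in 22 in shEGR1#8 and in 34 in the controls, and SLC16A1 was the only member among them. The antisense gene SLC16A1-AS1 was at 2 to 2.36 FPKM in the controls, 1.64 to 2.06 with shEGR1#8 and 2.07 to 3.25 with shEGR1#9. Whether the counting used strand is not given in the sources used here, and reads of this pair may not be told apart.

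SLC2A1 (GLUT1, the basal glucose importer) was at 12.1, 11.6 and 11 FPKM in the controls, 12.2, 12 and 13.8 with shEGR1#8 and 10.4, 10.7 and 11.4 with shEGR1#9. The groups overlapped, and the difference with both labels was 0.02 (SE 0.061, limma adjusted p = 0.873).

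**Figure D2:**
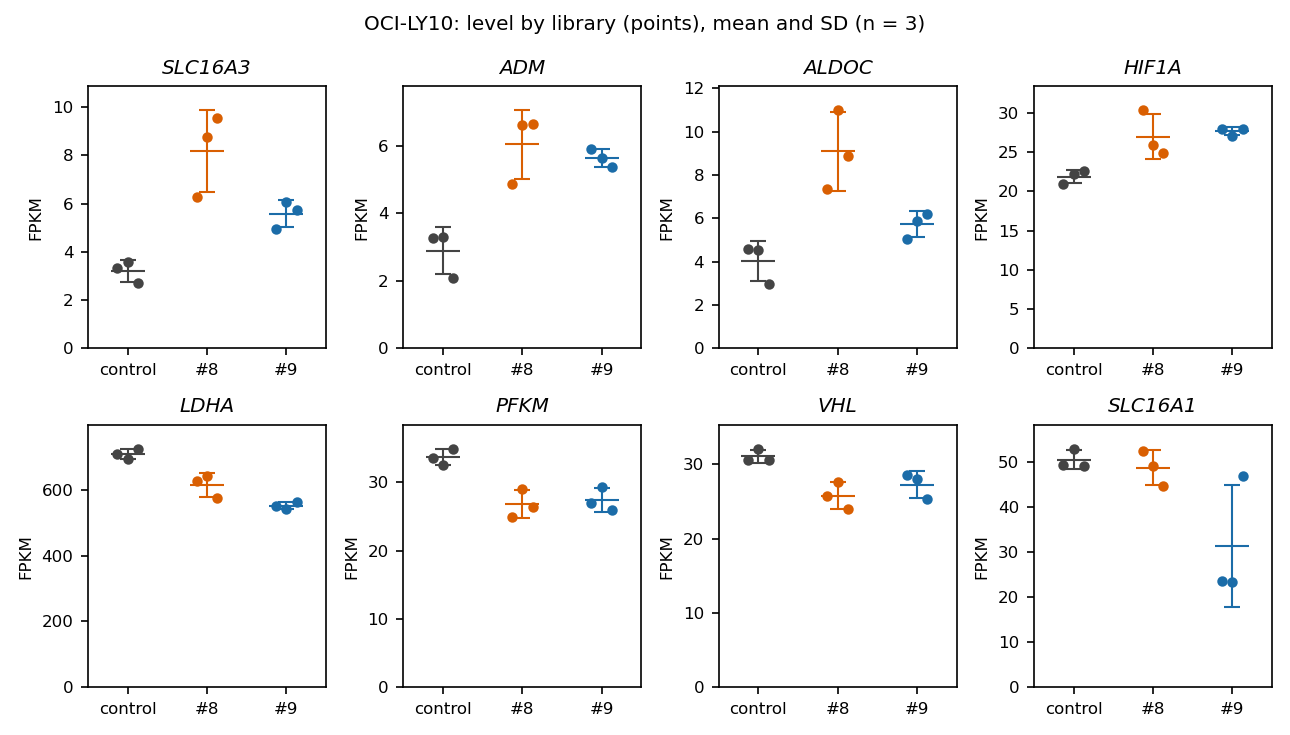
FPKM (linear axis from 0) of 8 members in each OCI-LY10 library; points are libraries, the horizontal mark is the group mean and the bar the SD over 3 libraries. SLC16A3, ADM, ALDOC and HIF1A are above the controls in all 6 hairpin-labelled libraries, LDHA, PFKM and VHL are below them in all 6, and SLC16A1 has 2 libraries near 23 and 1 at 46.8 FPKM with shEGR1#9.

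In the hexose steps of the pathway, from hexokinase to aldolase, ALDOC rose, PFKM fell and the other 8 members did not pass with both labels averaged. ALDOC, the brain-type aldolase that splits fructose 1,6-bisphosphate, was at 4.60, 4.54 and 2.95 FPKM in the controls, 7.35, 11 and 8.89 with shEGR1#8 and 5.06, 5.89 and 6.22 with shEGR1#9. The groups did not overlap, in the order control, shEGR1#9, shEGR1#8. ALDOC rose by 0.72 with both labels (SE 0.143, limma adjusted p = 0.0179), by 1.00 with shEGR1#8 (adjusted p = 0.0135), and its difference of 0.43 with shEGR1#9 did not pass (adjusted p = 0.191). Without control library 3, where ALDOC was lowest, the difference with both labels did not pass (adjusted p = 0.0742). ALDOA, the main aldolase, was at 267 to 312 FPKM in the controls and 270 to 387 in the hairpin-labelled libraries, and its copies in the genome make its level uncertain.

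PFKM, the muscle-type subunit of phosphofructokinase, which commits sugar to glycolysis, was at 33.6, 32.6 and 34.9 FPKM in the controls, 25.0, 29.0 and 26.4 with shEGR1#8 and 27.0, 29.3 and 25.9 with shEGR1#9. All 6 hairpin-labelled libraries lay below the controls. PFKM fell by 0.31 with both labels (SE 0.062, limma adjusted p = 0.019), but it did not pass without control library 1, 2 or 3 (adjusted p = 0.0807, 0.0641 and 0.107). PFKL, the liver-type subunit, was at 20.4 to 27.3 FPKM in the controls and 25.0 to 35.3 in the hairpin-labelled libraries (log2 difference 0.29, SE 0.114, adjusted p = 0.149). PFKP, the platelet-type subunit, was at 46.6 to 50.5 and 45.3 to 62.2 FPKM (0.07, SE 0.089, adjusted p = 0.666). PFKM thus made up 29.5 to 34.3% of the summed FPKM of the 3 subunit genes in the controls, 21.3 to 26.2% with shEGR1#8 and 23.9 to 27.8% with shEGR1#9, while PFKL made up 20.1 to 24.7%, 26.6 to 28.5% and 25.7 to 27.3%.

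PFKFB4 and PFKFB3 make fructose 2,6-bisphosphate, the activator of phosphofructokinase. PFKFB4 was at 0.756, 0.949 and 0.698 FPKM in the controls, 0.951, 1.98 and 2.36 with shEGR1#8 and 0.739, 1.01 and 0.803 with shEGR1#9. Libraries 2 and 3 of shEGR1#8 were the high ones, and the difference did not pass (shEGR1#8 0.58, SE 0.182, limma adjusted p = 0.104; shEGR1#9 0.04, adjusted p = 0.925). PFKFB3 was at 5.81 to 6.68 FPKM in the controls and 5.64 to 6.96 in the hairpin-labelled libraries. The hexokinases HK1 and HK2, which trap glucose in the cell, were at 25.9 to 30.9 and 26.6 to 30.8 FPKM across the 9 libraries, HK2 making up 48.5 to 50.9% of their sum. GPI, which turns glucose phosphate into fructose phosphate, was at 107 to 128 FPKM.

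None of the 7 members of the triose steps, which harvest ATP, was called. PGAM1, phosphoglycerate mutase, came nearest: 224, 222 and 217 FPKM in the controls, 272, 241 and 283 with shEGR1#8 and 240, 239 and 263 with shEGR1#9. All 6 hairpin-labelled libraries lay above the controls, and the log2 difference was 0.21 (SE 0.061, limma adjusted p = 0.0688). GAPDH, the dehydrogenase of the pathway, was the most abundant member, at 2985 to 3288 FPKM in the controls and 2948 to 3541 in the hairpin-labelled libraries. TPI1 (triose isomerase), PGK1 (which makes ATP), ENO1 (the main enolase) and PKM (pyruvate kinase) had log2 differences of -0.01, -0.11, -0.10 and 0.04. ENO2, the neuronal enolase, was at 46.6 to 60.9 FPKM and 6.13 to 7.33% of the enolase sum. GAPDH, TPI1, PGK1, PGAM1, ENO1, PKM, LDHA, LDHB and BNIP3 have near-identical copies elsewhere in the genome, between which counting can split reads, so their levels are uncertain.

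At pyruvate, LDHA fell. LDHA, the lactate dehydrogenase subunit linked to lactate production, was at 708, 693 and 723 FPKM in the controls, 626, 641 and 573 with shEGR1#8 and 550, 540 and 563 with shEGR1#9. The groups did not overlap, with shEGR1#9 lowest. LDHA fell by 0.28 with both labels (SE 0.049, limma adjusted p = 0.00984) and by 0.36 with shEGR1#9 (adjusted p = 0.00965), and its difference of -0.21 with shEGR1#8 did not pass (adjusted p = 0.071). It did not pass with both labels without control library 1 or 3 (adjusted p = 0.0543 and 0.0658), nor with shEGR1#9 without either of these or shEGR1#9 library 2 (adjusted p up to 0.0602). LDHB, the other subunit, was at 1041, 988 and 1037 FPKM in the controls, 913, 980 and 936 with shEGR1#8 and 946, 941 and 823 with shEGR1#9. LDHB lay below the controls in all 6 libraries, but its difference did not pass (-0.15, SE 0.057, adjusted p = 0.145), and LDHA made up 40.5 to 41.2% of the pair in the controls, 38 to 40.7% with shEGR1#8 and 36.5 to 40.6% with shEGR1#9. PDK1 and PDK3, kinases that hold pyruvate out of the mitochondrial citrate cycle, were at 5.75 to 10.4 and 1.03 to 1.32 FPKM across the 9 libraries, with log2 differences of 0.08 and 0.09.

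Among the oxygen-sensing genes, HIF1A rose and VHL narrowly missed the threshold on the other side. HIF1A was at 21.0, 22.2 and 22.6 FPKM in the controls, 30.4, 25.9 and 24.9 with shEGR1#8 and 27.9, 27.1 and 28.0 with shEGR1#9. All 6 hairpin-labelled libraries lay above the controls, and HIF1A rose by 0.30 with both labels (SE 0.066, limma adjusted p = 0.0231). It did not pass without control library 1, 2 or 3 (adjusted p = 0.112, 0.0861 and 0.0831) or shEGR1#9 library 1, 2 or 3 (adjusted p = 0.0521, 0.0528 and 0.0569), and its difference of 0.29 with shEGR1#8 alone did not pass (adjusted p = 0.0663). VHL was at 30.6, 32.1 and 30.6 FPKM in the controls, 25.7, 27.6 and 24.0 with shEGR1#8 and 28.6, 28.1 and 25.3 with shEGR1#9. It lay below the controls in all 6 libraries (log2 difference -0.22, SE 0.061, adjusted p = 0.0569). EGLN1, the main oxygen sensor of the EGLN enzymes, was at 4.26 to 4.39 FPKM in the controls and 4.27 to 5.19 in the hairpin-labelled libraries. HIF1A is controlled chiefly as a protein, which was not measured in these libraries.

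Of the 5 members that are known targets of HIF1A outside glycolysis, ADM rose and 4 did not pass. ADM, which encodes the vasodilator adrenomedullin, was at 3.27, 3.31 and 2.08 FPKM in the controls, 4.86, 6.62 and 6.64 with shEGR1#8 and 5.89, 5.63 and 5.36 with shEGR1#9. The groups of hairpin-labelled libraries overlapped each other and lay above all controls, and ADM rose by 0.82 (SE 0.128, limma adjusted p = 0.0064), by 0.86 with shEGR1#8 (adjusted p = 0.0149) and by 0.79 with shEGR1#9 (adjusted p = 0.0206). The shEGR1#9 call of ADM was lost without control library 1 or 3 or any 1 shEGR1#9 library (adjusted p up to 0.081). BNIP3, which drives the removal of mitochondria, was at 32.9, 33.1 and 30.3 FPKM in the controls, 39.9, 50.3 and 33.6 with shEGR1#8 and 31.8, 33.1 and 33.3 with shEGR1#9. For its relative BNIP3L the log2 differences were 0.26 with shEGR1#8 and 0.02 with shEGR1#9. For VEGFA, the growth factor of blood vessels, they were 0.30 and -0.05, and for ANKRD37, a small ankyrin-repeat gene, 0.36 and -0.02. None of these 4 passed with either label.

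Non-overlap was set beside its background. Between the 6 hairpin-labelled libraries and the 3 controls, 5 of the 32 members lay wholly above (ADM, ALDOC, HIF1A, PGAM1 and SLC16A3), as did 12.9% of all genes tested, and 4 lay wholly below (LDHA, LDHB, PFKM and VHL), as did 8.22%. With shEGR1#8 alone 3 members rose (ADM, ALDOC, SLC16A3) and PFKM fell, against 3.71% and 1.62% of all genes. With shEGR1#9 alone 3 rose (ADM, HIF1A, SLC16A3) and LDHA fell, against 3.55% and 1.54% of all genes. Both contrasts use the same 3 control libraries. The call of PFKM with shEGR1#8 was kept without shEGR1#8 library 2 and lost without any 1 of the other libraries. The shEGR1#9 count of 4 fell to 0 without control library 1, control library 3 or shEGR1#9 library 2, to 1 without shEGR1#9 library 1, and to 2 without control library 2 or shEGR1#9 library 3. The count of 6 with both labels fell to 3 without control library 1 and to 2, SLC16A3 and ADM, without control library 3. SLC16A3 and ADM were called with both labels under all 15 alternatives.

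Set directly against each other, the hairpin labels gave no called gene with all libraries, and over all genes 9 without shEGR1#8 library 1, 8 without its library 2, 2 without shEGR1#9 library 3, and 1 without control library 3, without shEGR1#9 library 1 or 2, or without the filter. In limma, shEGR1#9 against shEGR1#8 called 0 of 32 members and 0% of all genes tested, with 9 members and 267 genes at an unadjusted p under 0.05. All 9 of these members were lower with shEGR1#9, as were 27 of the 32 members by sign, with a median log2 difference of -0.10. Over all genes 5498 of 10612 were lower by sign, with a median of -0.00, and 141 of the 267 were lower. Among the members were ALDOC (-0.57, SE 0.166), SLC16A3 (-0.47, SE 0.143), VEGFA (-0.35, SE 0.113) and LDHA (-0.15, SE 0.056), while PFKFB4 (-0.54, SE 0.182), which passed the level for testing only through hairpin-labelled libraries, adds no support. The shEGR1#9 libraries lay wholly below the shEGR1#8 libraries for 7 members (ALDOC, BNIP3, HK2, LDHA, SLC16A3, SLC2A1 and VEGFA), against 2.89% of all genes, and wholly above for 0, against 2.43%. Without shEGR1#9 library 3, SLC16A1 alone of the members was called (-1.02, adjusted p = 0.0148). The members' median coefficient of variation within a group was 4.58% in the controls, 8.74% with shEGR1#8 and 5.09% with shEGR1#9, against 5.61, 11.8 and 6.16% over all genes tested, and the highest were 24.1% (ADM), 41.4% (PFKFB4) and 43.4% (SLC16A1).

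Of 98 further genes of sugar metabolism and the hypoxia response, 68 were tested in OCI-LY10, of which 7 rose and 4 fell with both labels, against 5.84% and 2.71% of all genes tested. Their median log2 difference was 0.03, as over all genes tested, and the limma adjusted p of those called ran from 0.00379 (DDIT4) to 0.0479 (NDRG1). Of the 31 genes of sugar metabolism tested, TXNIP, which restrains glucose uptake, rose by 0.33 and RPIA, of the pentose phosphate pathway, fell by 0.31. PGM1, of glycogen metabolism, fell by 0.26 and was named after its value was seen. Of the 37 hypoxia genes tested, HMOX1 (haem breakdown, 0.52), DDIT4 (an inhibitor of mTORC1, 0.51), KDM4B (a histone demethylase, 0.46), MXI1 (a MYC antagonist, 0.33), BHLHE40 (a transcriptional repressor, 0.27) and NDRG1 (a stress response gene, 0.26) rose. ERO1L, an oxidase of protein folding, fell by 0.45 and TFRC, the transferrin receptor, fell by 0.30. The count of 11 fell to 2 without control library 1 or 3, to 5 without control library 2 or shEGR1#9 library 3 and to 6 without shEGR1#9 library 2.

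In TMD8 and SUDHL2 each group is 1 library, so differences have no replicate check and no test. They are given in log2(FPKM + 1) after centring on the median gene, and a gene is counted when both hairpin-labelled libraries lie past 1.5-fold on the same side of their control, which both share. Of 31 members counted in TMD8, ALDOC was higher and LDHA and LDHB were lower, against 7.43% and 12.7% of all 11807 genes counted. Of 31 members counted in SUDHL2, ALDOC, PFKFB3, PFKFB4 and SLC16A3 were higher and 0 were lower, against 3.71% and 2.21% of all 11631. PFKFB4 and SLC16A3 were under 1 FPKM in the SUDHL2 control and were counted there only through the hairpin-labelled libraries, where they are high, so their place in that count supports nothing. ANKRD37 entered the 31 of SUDHL2 in the same way (0.931 FPKM in the control, 1.85 with shEGR1#8 and 1.89 with shEGR1#9). The members' median was -0.27 with shEGR1#8 and -0.04 with shEGR1#9 in TMD8, and 0.29 and 0.16 in SUDHL2. The SUDHL2 medians include PFKFB4, SLC16A3 and ANKRD37 and so add no support. The TMD8 control also differed from its hairpin-labelled libraries in the share of small structural RNAs given above, and the part of that share in these values was not tested.

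**Figure D3:**
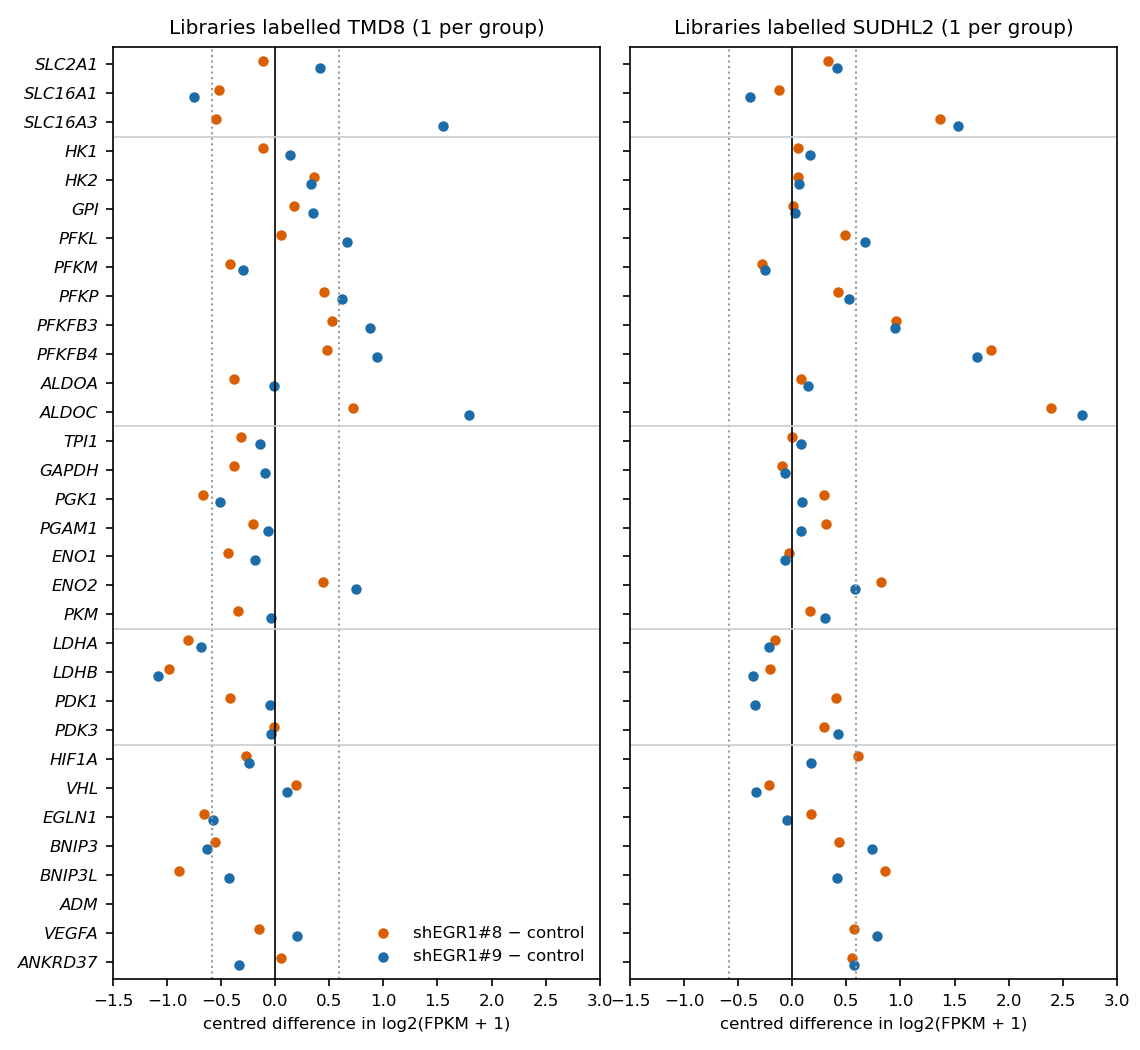
Centred difference in log2(FPKM + 1) from the control library in the tables labelled TMD8 (left) and SUDHL2 (right), 1 point per hairpin-labelled library and member; dotted lines mark 1.5-fold, and ADM, below 1 FPKM in all 6 libraries, has no point. ALDOC lies to the right in both tables, and LDHA and LDHB lie to the left in both. PFKFB4, SLC16A3 and ANKRD37 are plotted in SUDHL2 only because the hairpin-labelled libraries reach 1 FPKM.

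ALDOC was at 10.2, 16.4 and 37.9 FPKM in the control, shEGR1#8 and shEGR1#9 libraries of TMD8, and at 3.60, 23.2 and 28.6 FPKM in those of SUDHL2. Of the members counted in all 3 tables, it alone was above control in every hairpin-labelled library of each. Its share of the ALDOA and ALDOC sum was 1.27, 2.77 and 4.55% in TMD8, 0.454, 2.69 and 3.16% in SUDHL2, and 1.09 to 1.45% in the controls against 1.84 to 3.41% in the hairpin-labelled libraries of OCI-LY10. By the same count PFKM, LDHA and LDHB alone were below control in every hairpin-labelled library of each table. This count takes differences of any size, such as -0.28 and -0.25 for PFKM in SUDHL2. In TMD8 and SUDHL2 it rests on 1 shared control library each. The share of all genes on the same side in every table was not computed, so nothing particular to these members is read from it. LDHA was at 936, 503 and 583 FPKM in TMD8 and 624, 563 and 540 in SUDHL2. LDHB was at 1333, 635 and 629 FPKM in TMD8 and 768, 667 and 603 in SUDHL2. LDHA's share of the pair was 41.3, 44.2 and 48.1% in TMD8 and 44.8, 45.8 and 47.3% in SUDHL2, above control with both labels there but not in OCI-LY10. PFKM's share of the phosphofructokinase subunits was 24.5, 15.6 and 14.4% in TMD8 and 25.4, 17.1 and 16.2% in SUDHL2, below control in both tables as in OCI-LY10.

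**Figure D4:**
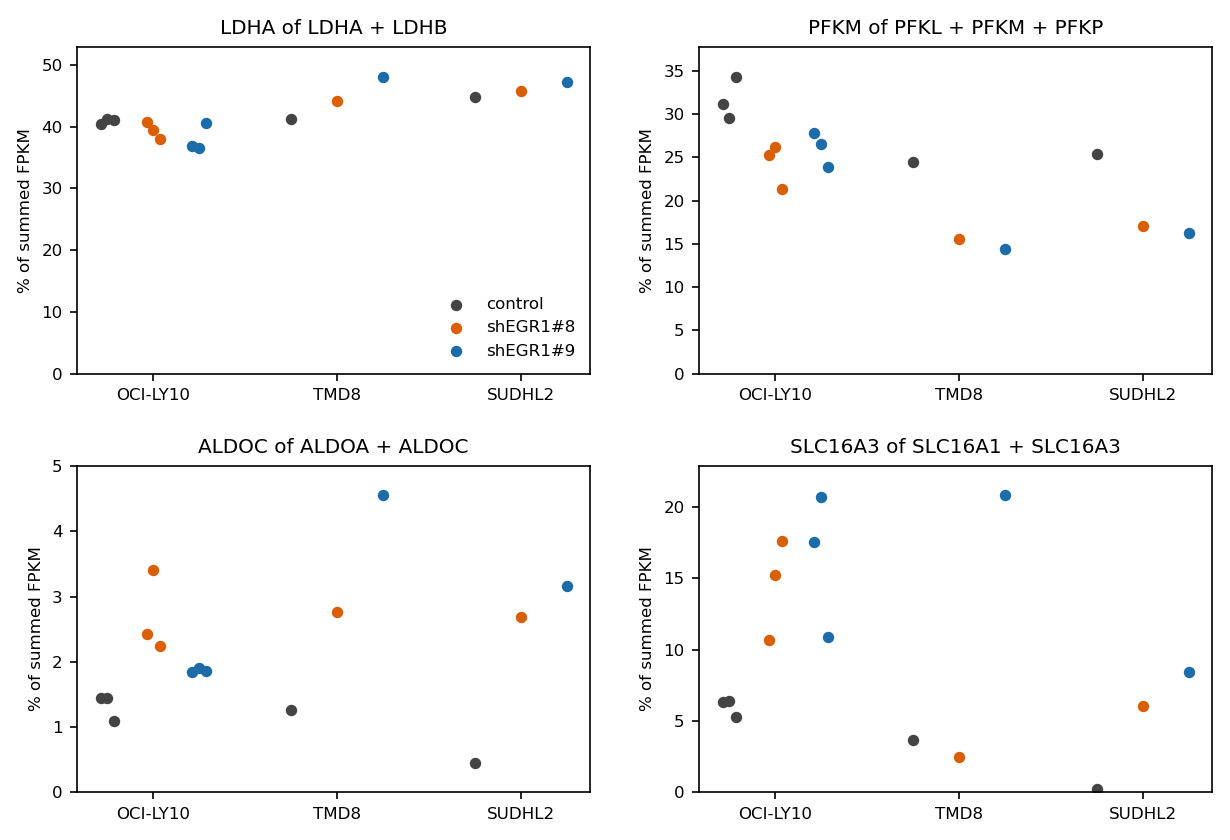
Share (%) of summed FPKM taken by 1 isozyme or transporter in each library, by cell line label and hairpin; points are libraries and axes start at 0. In every table the share of PFKM is lower and that of ALDOC higher in all hairpin-labelled libraries than in any control there. The share of LDHA is not ordered alike across tables, and the SLC16A3 share is above control in all but the shEGR1#8 library of TMD8. SLC16A3 was at 0.0624 FPKM in the SUDHL2 control, so its share there supports nothing.

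SLC16A3 was at 1.70, 0.741 and 6.92 FPKM in the control, shEGR1#8 and shEGR1#9 libraries of TMD8, so the labels lay on opposite sides of the control there. In SUDHL2 it was at 0.0624, 1.77 and 2.09 FPKM. SLC16A1 was at 44.7, 29.0 and 26.3 FPKM in TMD8 and 29.9, 27.5 and 22.8 in SUDHL2. PFKFB4 was at 1.38, 2.14 and 3.59 FPKM in TMD8 and 0.448, 4.21 and 3.78 in SUDHL2, above control with both labels in each. The SUDHL2 values of SLC16A3 and PFKFB4 support nothing, as both were counted there only through hairpin-labelled libraries. PFKFB3 was at 6.6, 9.27 and 13 FPKM in TMD8 and 6.49, 13.7 and 13.6 in SUDHL2. HIF1A was at 34.2, 26.5 and 28.9 FPKM in TMD8, below control with both labels, and at 19.9, 31.1 and 22.7 in SUDHL2, above it. VHL was at 14.9, 16.2 and 16.2 FPKM in TMD8 and 21.9, 18.8 and 17.3 in SUDHL2, on the opposite side from HIF1A in each. The centred VHL differences were 0.19 and 0.11 in TMD8 and -0.22 and -0.34 in SUDHL2. No relation of VHL to HIF1A was tested. ADM stayed under 1 FPKM in both tables, listed at 0 in the SUDHL2 control and at 0.678 and 0.554 FPKM in its hairpin-labelled libraries. DDIT4, of the further hypoxia genes, was at 29.7, 55.5 and 96.9 FPKM in TMD8 and 16, 68 and 72 in SUDHL2, values picked out after being seen.

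In total the 34 members summed to 8044 to 9112 FPKM in OCI-LY10, 6452 to 9447 in TMD8 and 7925 to 7960 in SUDHL2. GAPDH, PKM, LDHB, ENO1, LDHA and TPI1 made up 83.2 to 84.9% of that sum in OCI-LY10, 75.8 to 79.6% in TMD8 and 75 to 78.2% in SUDHL2. The pool was thus held by a few abundant enzymes, whereas 3 of the 4 genes that rose in OCI-LY10 (SLC16A3, ADM and ALDOC) were at or below 11 FPKM in every OCI-LY10 library. ENO2 made up at most 0.506% of the enolase sum in TMD8 and SUDHL2 and at least 6.13% in OCI-LY10. The share is taken within each library, so a scaling of whole libraries does not alter it. Whether the tables were otherwise processed alike is not stated, and their shares of small structural RNAs, given above, were unlike. The part of this in the ENO2 shares was not tested.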

How the data were processed

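Per the labels' protocols, 15 RNA libraries of 3 cell line labels were made with a TruSeq kit and sequenced. The deposited tables give 1 value per gene and library, read here as FPKM because the values are not whole and do not sum to a fixed total. Neither the labels nor the headers name the unit. The build hg19 and the tools HISAT, StringTie and Bowtie2 are named, without version or role, per the submitters' processing notes. The annotation, any filter, any scaling of libraries and the read totals are not stated there, so depth is unknown and no counting interval is printed. Genes under 0.08 FPKM were checked for whole-number ratios (up to 4, within 0.01 log2 units), at the scaling of each library pair that gave most. The share was 23 to 35.8% in OCI-LY10 and 81 to 88.2% in SUDHL2. In TMD8 it was 10.4% between control and shEGR1#8, 8.06% between control and shEGR1#9, and 87.6% between shEGR1#8 and shEGR1#9. The shares bear on relative depth, not on read totals. The TMD8 control thus differed from its hairpin-labelled libraries here too, and the part of this in the TMD8 differences was not tested.

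Lines with a repeated name (4 in OCI-LY10, 10 in TMD8, 10 in SUDHL2) were left out, as were 430 lines at the end of the SUDHL2 table: a joined line and 429 equal to the end of the TMD8 table. Libraries were grouped by title and treatment label. In OCI-LY10, log2(FPKM + 1) of the 10612 genes at 1 FPKM or more in at least 3 of 9 libraries was fitted in limma 3.58.1 (R 4.3.3) with a mean-variance trend and 1 mean per group. Contrasts were each hairpin label against control, their average, and shEGR1#9 against shEGR1#8. P-values were Benjamini-Hochberg adjusted over all genes tested and called at 0.05. The log2(FPKM + 1) scale understates changes of low genes. Deviations of same-numbered shEGR1#8 and shEGR1#9 libraries correlated at 0.173, 0.134 and 0.260, and those of differently numbered ones from -0.269 to 0.146. The comparison of shEGR1#9 with shEGR1#8 was therefore also fitted with replicate number as a block. The script was tested on simulated data. TMD8 and SUDHL2, with 1 library a group, were described without a test. Figures and sums used Python 3.11.15, pandas 2.3.3 and matplotlib 3.10.9. Alternatives were a pseudocount of 0.1, no filter, quantile and median-ratio scaling, a replicate block, array weights and leaving out each library. Members and gene lists were chosen with earlier results of these data known. The text names all 34 members, EGR1, and of the further pathway genes the 10 of largest change among those called; PGM1, called with a smaller change, was added after its value was seen. Promoter windows were taken from RefSeq (GRCh38.p14), with no conversion from hg19.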

Additional observations from a re-analysis of the deposited data

Results flagged for a closer look

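Between tables, several members moved to opposite sides of control in every hairpin-labelled library. The share of all genes that did so was not computed, so nothing particular to these members is read from it. The values are differences between the tables' mean log2 differences from control, and none of these differences was tested. Those of TMD8 and SUDHL2 were centred on the median gene, and those of OCI-LY10 were not (median over all genes tested 0.03). TMD8 has 1 library per group, as has SUDHL2. Of all genes counted, 12.7% were past 1.5-fold lower with both labels in TMD8 and 7.43% higher. In SUDHL2 these shares were 2.21% and 3.71%. Small structural RNAs took 36.3% of the summed FPKM in the TMD8 control against 63.1 and 60.6% with shEGR1#8 and shEGR1#9. The part of this in the differences was not tested. For HIF1A the OCI-LY10 value exceeded that of TMD8 by 0.56 (0.30 and -0.25), and TMD8 against SUDHL2 was -0.65 (-0.25 and 0.39). For VHL, OCI-LY10 against TMD8 was -0.37 (-0.22 and 0.15), and TMD8 against SUDHL2 was 0.43 (0.15 and -0.28). For PGAM1 the same pairs gave 0.35 (0.21 and -0.14) and -0.34 (-0.14 and 0.20).

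The remaining members of this kind were on opposite sides of control in TMD8 and SUDHL2, each lower in TMD8. The mitophagy genes stood furthest apart, BNIP3L at -1.30 (-0.66 and 0.63) and BNIP3 at -1.18 (-0.60 and 0.59). For the enzymes the differences were -0.78 for PGK1 (-0.59 and 0.19), -0.43 for PKM (-0.19 and 0.23), -0.31 for ALDOA (-0.20 and 0.11) and -0.27 for TPI1 (-0.23 and 0.04). For the kinase PDK3 it was -0.38 (-0.03 and 0.35). Some of these sides rest on values near 0. With shEGR1#8 and shEGR1#9, PDK3 was at -0.01 and -0.04 in TMD8, and TPI1 at 0.00 and 0.08 in SUDHL2.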

How the results depend on the processing

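Of 945 values recomputed for 63 gene results, 721 kept direction and side of the threshold, 185 kept direction and lost the call, 12 gained it and 27 changed sign. Members called with both labels numbered 6, 9 with array weights and 2 to 8 when 1 library was left out. For shEGR1#8 the count of 4 became 7 with array weights and 3 to 6 with 1 library left out. For shEGR1#9 the count of 4 became 2 without a filter, 7 with array weights and 0 to 5 with 1 library left out. For shEGR1#9 against shEGR1#8 it was 0 to 1. The 11 further pathway genes became 6 without a filter, 7 with quantile normalization, 20 with array weights and 2 to 16 with 1 library left out. Array weights called 1287 genes higher and 627 lower over all genes, against 620 and 288. In TMD8 the count of 3 became 5 without centring, 5 with a pseudocount of 0.1, 6 without a filter and 0 at 2-fold. In SUDHL2 the count of 4 became 7 with a pseudocount of 0.1. With both labels VHL was also called with quantile or median-ratio scaling, array weights, and without shEGR1#8 library 2 or 3. PGAM1 was called with quantile normalization, array weights and without shEGR1#8 library 2, BNIP3 with array weights, and PFKFB4 without shEGR1#8 library 1. The causes were not tested.

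Signs changed for uncalled members near 0. With quantile normalization PFKFB3 was at -0.03, TPI1 0.07, ENO2 -0.01 and SLC2A1 -0.03. With median-ratio scaling GAPDH was at -0.03, ENO2 -0.02 and SLC2A1 -0.01. With array weights TPI1 was at 0.01, GAPDH -0.04, ENO2 -0.01 and SLC2A1 -0.01. With 1 library left out PFKFB3 ranged from -0.00 to 0.08, TPI1 from -0.03 to 0.03, GAPDH from -0.03 to 0.04, ENO2 from -0.04 to 0.05, SLC2A1 from -0.02 to 0.05 and PDK1 from -0.09 to 0.17.

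With replicate number as a block, 7 members were called with both labels (VHL added), 3 with shEGR1#8 (PFKM lost), 3 with shEGR1#9 (HIF1A lost), 0 between hairpins, and 10 further pathway genes. The numbers did not pair the controls with the hairpin libraries (same-numbered deviations correlated from -0.188 to 0.060). Between shEGR1#8 and shEGR1#9 libraries, same-numbered deviations correlated from 0.134 to 0.260 and differently numbered ones from -0.269 to 0.146. In the 6 hairpin-labelled libraries alone, a block chosen after seeing the data called 0 members and 0 genes. In that fit 8 members were at an unadjusted limma p under 0.05, all lower with shEGR1#9.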
